A study of Mus musculus with 4 samples.

Results

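Sharp falls of the replication profile that were present both in wild-type mouse embryonic stem cells and in cells labelled as a knockout of Snf2h, the ATPase of ISWI chromatin remodelling complexes, were examined. There were 1009 such zones on the 19 autosomes. They held 3150 of 94040 windows with a value in all libraries, which is 3.35%. TrAEL-seq captures free 3′ ends of DNA and records their strand. The profile is the strand imbalance of these ends (polarity, in percentage points from -50 to 50), given in windows of 100 kb that start every 25 kb along GRCm38. The fall of a window is the polarity of the window starting 200 kb downstream minus its own polarity, where downstream means towards higher coordinates. A window was kept where the fall was -20 points or less in each of the 4 libraries, and kept windows with neighbouring starts were merged. The zones were thus chosen by the measured fall in all 4 libraries, and a fall at a zone is given here as a description without a test.

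The libraries were 2 of wild-type (WT) cells and 2 of Snf2h knockout (KO) cells. Both genotypes were of the embryonic stem cell line 129S6/SvEvTac, grown as duplicate cultures in serum with LIF on gelatin. How the knockout was made, whether it was 1 clone and the remaining Snf2h level are not stated in the labels, and no treatment differed between the groups. Replicates are therefore cultures of a line, and p-values measure the spread between these libraries.

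A replication origin sends a fork in each direction, and converging forks meet and terminate between origins. In a population of cells the balance of fork directions thus changes one way across a zone of initiation and the opposite way across a zone of termination. ISWI remodellers slide and space nucleosomes and act in chromatin assembly behind the fork. The labels and headers do not state which strand was counted as positive, so it is not stated whether a fall marks initiation or termination. Falls are therefore described beside rises, which were found by the mirrored rule (20 points or more in all 4 libraries) and numbered 1582.

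For 4 of the 5 deepest falls, the promoter nearest to the centre among those with an entry in the RefSeq promoter table is shown, as an example of start sites in these zones. Vps35, Olfr285 and Olfr284, which had no entry, have an end nearer to the centre of their zone than the start site shown. The bases are the 250 upstream of the RefSeq start site (GRCm38.p6), written in the direction of the gene, with every CG dinucleotide in capitals. The fifth zone of that group, over Skap1, is not shown. Apol10b lies on the minus strand at chr15:77596126-77596375, Defb29 on the minus strand at chr2:152540042-152540291, Olfr371 on the plus strand at chr8:85230247-85230496 and Zfp641 on the minus strand at chr15:98296162-98296411.
Apol10b: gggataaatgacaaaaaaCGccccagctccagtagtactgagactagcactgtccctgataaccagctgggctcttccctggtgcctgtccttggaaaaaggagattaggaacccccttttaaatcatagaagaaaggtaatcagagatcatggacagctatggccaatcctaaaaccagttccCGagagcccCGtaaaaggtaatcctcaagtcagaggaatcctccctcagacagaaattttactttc
Defb29: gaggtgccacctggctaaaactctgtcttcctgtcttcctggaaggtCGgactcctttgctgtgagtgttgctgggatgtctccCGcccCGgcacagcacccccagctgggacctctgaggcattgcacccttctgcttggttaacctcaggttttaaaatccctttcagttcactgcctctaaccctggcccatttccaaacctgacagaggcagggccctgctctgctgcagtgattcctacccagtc
Olfr371: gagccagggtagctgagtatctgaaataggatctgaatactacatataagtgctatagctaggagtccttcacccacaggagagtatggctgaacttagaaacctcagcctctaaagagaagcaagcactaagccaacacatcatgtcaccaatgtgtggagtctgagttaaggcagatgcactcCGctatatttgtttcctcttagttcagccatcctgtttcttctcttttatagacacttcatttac
Zfp641: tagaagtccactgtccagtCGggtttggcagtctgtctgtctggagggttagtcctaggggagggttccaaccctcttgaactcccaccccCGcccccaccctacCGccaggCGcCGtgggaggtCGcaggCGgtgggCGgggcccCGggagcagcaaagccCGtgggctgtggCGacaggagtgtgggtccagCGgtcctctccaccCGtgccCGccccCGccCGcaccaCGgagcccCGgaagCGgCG
The start sites lay 21.1 kb from the zone centre for Apol10b, -9.96 kb for Defb29, -19.5 kb for Olfr371 and -28.8 kb for Zfp641, with negative values upstream. Apol10b and Defb29 had 3 CG dinucleotides each, Olfr371 had 1 and Zfp641 had 20. Over 1703 promoters whose start site lay in a zone of fall, the median was 4 CG dinucleotides in 250 bases, against 14 over 4717 promoters in zones of rise and 10 over all 16457. At least 15 CG dinucleotides were present in 24.8% of promoters in falls, 46.6% in rises and 37.9% of all. The motif TATAAA, searched on both strands, was present in 16.9%, 9.31% and 12.5% of them. CG-poor promoters were thus more frequent in falls than in rises. The promoter table covers 79.6% of autosomal protein-coding genes and 80.5% of those with a midpoint in a zone of fall.

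The zones were unevenly spread. The core of a zone, from the midpoint of its first window to the midpoint of the partner of its last, had a median width of 250 kb (quartiles 200 and 275 kb, widest 425 kb). With the partner at 100 kb or 300 kb downstream the median width was 125 kb or 350 kb. Width thus followed the partner distance and is not a measure of the falls alone. A single kept window made up 277 zones (27.5%), which have the smallest possible core of 200 kb. Cores of 300 kb or more numbered 242. Zones of rise had a median width of 275 kb, and 669 of them were 300 kb or wider. The median distance between the centres of neighbouring falls was 1.18 Mb (quartiles 0.625 and 2.64 Mb). Of 990 such distances, 434 (43.8%) were under 1 Mb and 121 were over 5 Mb. The cores of 80 zones overlapped the next zone, so neighbours at the shortest distances share windows. The longest distance was 25.0 Mb, on chromosome 1 between 92725000 and 117725000. For rises the median distance was 1.15 Mb and the longest 11.0 Mb, with 29 distances over 5 Mb.

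Zones per 10 Mb of windows ranged from 2.96 on chromosome 3 to 6.07 on chromosome 11, against 4.29 over all autosomes. Chromosomes 19 and 13 had 6.03 and 5.92, and chromosomes 18 and 16 had 2.97 and 3.07. For rises the range was 6.04 to 8.01. The density of falls thus varied more between chromosomes than that of rises. Across the 19 autosomes, which share the same 4 libraries, the density of falls and the density of protein-coding genes (5.63 to 14.0 per Mb) had Pearson's r = 0.598 and Spearman's rho = 0.642.

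Falls mostly lay between rises. Of 994 falls with a neighbouring zone of either kind on both sides, 615 (61.9%) had a rise as the nearest zone on each side. The nearest rise centre was at a median of 450 kb upstream (quartiles 262.5 and 787.5 kb) and 475 kb downstream (quartiles 275 and 875 kb). Between the flanking rises of those 615 falls the median distance was 937.5 kb. The fall centre lay at a median fraction of 0.500 of the way (quartiles 0.353 and 0.631).

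In 838 of 1009 zones (83.1%) the polarity at the middle window was above 0 upstream and below 0 downstream in all 4 libraries, so the net strand balance switched sign across the zone. Polarity stayed above 0 on both sides in 4 zones and below 0 on both sides in 4 zones, in all libraries. The other 163 zones differed between libraries. The switch was seen in 94.5% and 96.0% of zones in WT replicates 1 and 2 and in 88.7% and 91.7% in KO replicates 1 and 2. The shares were lower in both KO than in both WT libraries, and no test is given because the switch is read from the levels whose difference chose the zones.

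Upstream of the centre, mean polarity peaked at -125 kb in every library. At -150 kb it was 14.7 and 12.7 points in WT replicates 1 and 2 and 18.4 and 13.6 points in KO replicates 1 and 2. At 150 kb downstream it was -14.7 and -13.0 points in the WT libraries, against -18.8 and -13.8 points in the KO libraries. Levels close to the centre are set by the rule. Farther out the mean profile was reversed, at -2.50 and -2.31 points in the WT libraries, against -3.13 and -2.26 points in the KO libraries at -500 kb. At 500 kb downstream it was 1.83 and 1.37 points in the WT libraries, against 2.27 and 1.58 points in the KO libraries. On average the fall was thus a local reversal within a region whose outer flanks had the opposite signs.

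**Figure D1:**
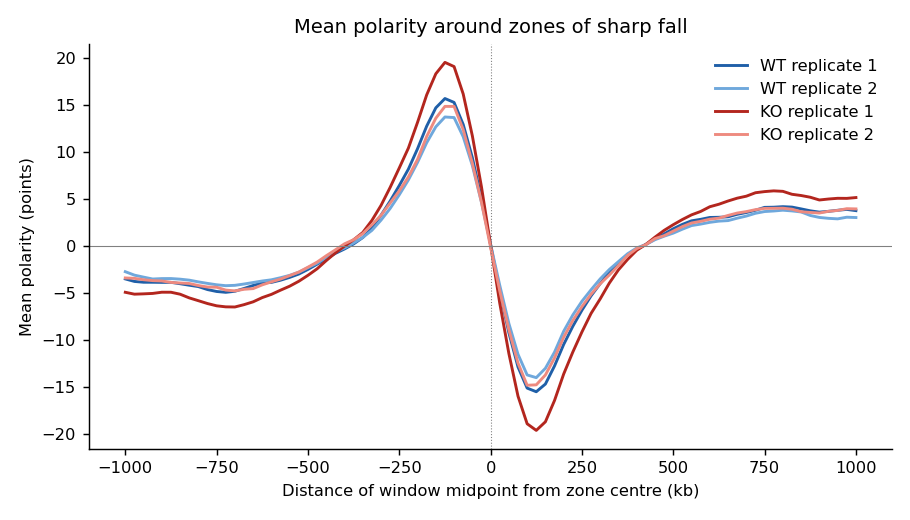
Mean polarity in points (vertical axis) against the distance of the window midpoint from the zone centre in kb (horizontal axis), with a line for each of the 4 libraries, over up to 1009 zones. The lines run from a peak at -125 kb to a trough at 100 or 125 kb and lie beyond 0 on the opposite side at 500 kb, and KO replicate 1 has the widest swing.

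Falls at the middle windows of the zones averaged -30.5 points per 200 kb in WT replicate 1 and -27.4 points in WT replicate 2. In KO replicates 1 and 2 they averaged -38.1 and -29.8 points. KO replicate 1 stood apart, and KO replicate 2 lay between the WT libraries. The genotype means were -29.0 ± 2.16 points in the WT libraries, against -33.9 ± 5.88 points in the KO libraries (SD, n = 2 each). The difference, KO minus WT, was -4.94 points against a replicate SD of 4.43 points. It was -0.790 points without KO replicate 1, -9.10 points without KO replicate 2, -6.47 points without WT replicate 1 and -3.42 points without WT replicate 2.

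The libraries differed in amplitude in the same order. The SD of the fall over all 94040 windows was 16.5 and 14.6 points in the WT libraries, against 21.4 and 16.5 points in the KO libraries. In units of that SD the mean fall at the zones was -1.85 and -1.87 in WT replicates 1 and 2, and -1.78 and -1.81 in KO replicates 1 and 2. On this scale both KO libraries were shallower than both WT libraries, whereas in points KO replicate 2 lay between the WT libraries. The threshold of the rule is fixed in points, so in units of the SD it is less strict in a library with a larger SD. Its part in the order of the scaled means was not tested. The KO to WT ratio was 1.17 for falls at the zones, 1.21 for rises at the zones of rise (32.4 ± 2.61 points in the WT libraries, against 39.2 ± 7.95 points in the KO libraries) and 1.22 for the SD of the fall. The sign of the mean genotype difference at the zones thus differed between the scales. No conclusion is drawn from this, because the same values chose the zones. By chromosome the ratio at the zones lay between 1.13 on chromosome 4 and 1.22 on chromosome 15.

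**Figure D2:**
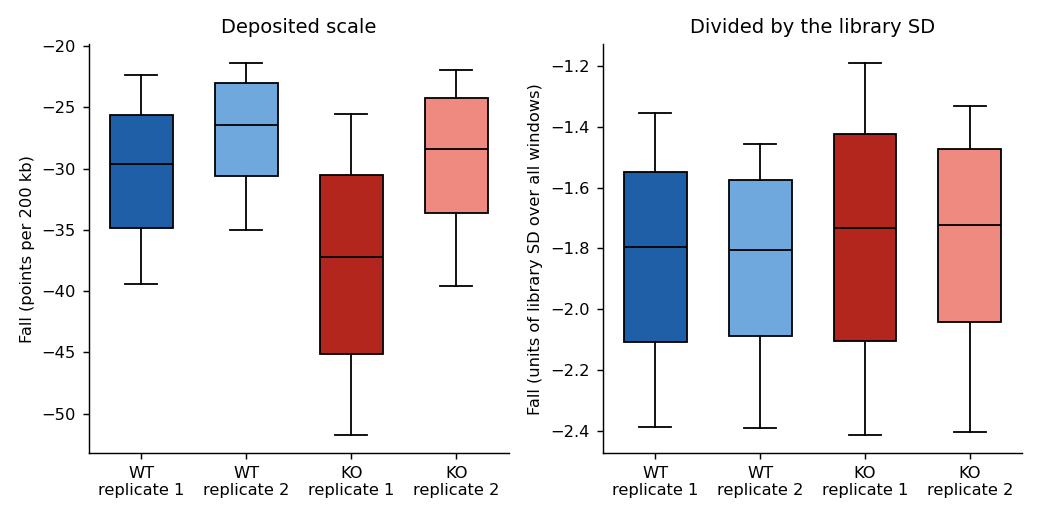
Falls at the middle windows of the 1009 zones by library, in points per 200 kb (left) and in units of each library's SD of the fall over all windows (right). Boxes show the quartiles and the median, and whiskers the 10th and 90th percentiles: KO replicate 1 is the deepest on the left, with a median of -37.2 points, and the boxes on the right largely overlap.

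Zone by zone, the mean fall was deeper in KO in 812 of 1009 zones (80.5%). Both KO libraries were below both WT libraries in 365 zones (36.2%), against 27.4% of all windows with a mean fall below 0 and 22% of all windows. Both KO libraries were above both WT libraries in 37 zones (3.67%), against 13.2% and 20.5%. After division by the library SD the counts were 146 (14.5%) and 263 (26.1%), against 20.1% and 21.1% of windows with a mean fall below 0. The rule bounds all 4 values on one side, so nothing is read from these counts. Over all windows, 8 of 94040 had a limma adjusted p under 0.05 for the fall (0.00851%). That count was 459 with scaled libraries, 221 when limma estimated a trend robustly, 1424 with the replicate block, 5557 without KO replicate 1 and 10565 without KO replicate 2. It was 25 and 28 without WT replicates 1 and 2. No test of the fall at the zones is given, because their falls chose them.

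The mid-level of a zone, the mean of the polarity on its 2 sides, was not used by the rule. Averaged over zones it was 0.358 and 0.211 points in WT replicates 1 and 2 and 0.488 and 0.294 points in KO replicates 1 and 2. Single zones went both ways, with an SD over zones of 6.70 and 5.92 points in WT replicates 1 and 2 and of 9.60 and 7.38 points in KO replicates 1 and 2. All windows had SDs of 12.1 and 10.5 points in the WT libraries, against 16.2 and 11.9 points in the KO libraries. The difference between genotypes at single zones had quartiles of -2.80 and 3.02 points and a range of -16.4 to 15.9 points. Its median size was 2.93 points, against 3.39 points over all windows. In limma, 28 of 94040 windows had an adjusted p under 0.05 for the mid-level (0.0298%) and no zone did (count 0; lowest adjusted p = 0.136). An unadjusted p under 0.05 was found at 103 zones (10.2%) and in 12.6% of all windows. Both KO libraries lay below both WT libraries in 241 zones (23.9%) and above them in 250 zones (24.8%), against 22.8% and 22.7% of all windows. The shares at zones were close to those of all windows. Called zones numbered 15 with scaled libraries, 21 when limma estimated a trend robustly and 32 with the replicate block. All windows were then called at 1.68%, 2.11% and 4.48%. No zone was called with windows spaced 100 kb (239 zones tested) or at an adjusted p under 0.1.

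The position of the sign switch was compared next. A point where polarity passed from above 0 to 0 or below was found in all 4 libraries in 887 zones. Relative to the zone centre it lay on average at 1.02 and 1.48 kb in WT replicates 1 and 2, and at 1.26 and 0.0651 kb in KO replicates 1 and 2. The switch is read from levels whose difference chose the zones, and a shared fall in all 4 libraries limits how far apart it can lie, so its position is a description without a test. The KO minus WT difference of -0.587 kb was within the replicate SD of 0.638 kb, and was 0.00824 kb without KO replicate 2. It was smaller than the spacing of the windows. Between libraries, the median distance of the switch at the same zone was 14.4 kb for the WT pair and 18.1 kb for the KO pair. Between genotypes it was 20.1 and 23.2 kb for WT replicate 1 with KO replicates 1 and 2, and 22.3 and 25.0 kb for WT replicate 2. Each of these medians was at most one step of the windows, at zones where the rule required the same windows to fall in every library. Distances over 100 kb were found in 0.338% of zones for the WT pair in 0.902% for the KO pair and in 1.01% to 1.80% between genotypes.

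The share of falls kept between genotypes was then counted over windows. A fall of -20 points or less was present in 8464 and 6239 windows of WT replicates 1 and 2, and in 13764 and 8730 windows of KO replicates 1 and 2. The difference of 3895.5 windows was above the replicate SD of 2752 (exact two-sided permutation p = 0.333). It was 1378.5 without KO replicate 1 and 6412.5 without KO replicate 2, and -220 after division by the library SD. Replicates of a genotype also agreed only in part. Of the 8464 and 6239 windows of WT replicates 1 and 2, 4702 were shared by both. Of the 13764 and 8730 windows of KO replicates 1 and 2, 6324 were shared by both. The shares between genotypes are to be read beside these counts. Of 4702 windows at -20 or less in both WT libraries, 67.0% were so in both KO libraries, 90.05% in KO replicate 1 and 69.5% in KO replicate 2. Of 6324 windows at -20 or less in both KO libraries, 49.8% were so in both WT libraries. With scaled libraries these shares were 57.6% and 66.3%, in the reverse order.

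Few windows lost the fall altogether. Of the 4702 WT windows, 48 (1.02%) had falls above -10 points in both KO libraries, and 2 had values above 0 in both. Of the 6324 KO windows, 210 (3.32%) had falls above -10 points in both WT libraries and 8 had values above 0 in both. Windows that passed in 3 of the 4 libraries lacked WT replicate 2 in 1162 cases, KO replicate 2 in 1084, WT replicate 1 in 411 and KO replicate 1 in 119. The library of lowest amplitude, WT replicate 2, was missing most often and that of highest amplitude, KO replicate 1, least often. WT replicate 1 and KO replicate 2 had unlike counts at nearly equal SDs of the fall (16.5 points). The cause was not tested. Near the threshold, the window at 82300001 to 82400000 on chromosome 7 was kept with -29.6, -30.3, -34.6 and -20 points in WT replicates 1 and 2 and KO replicates 1 and 2. The window at 101575001 to 101675000 on chromosome 15 was left out with -38.7, -31.7, -49.0 and -19.995 points. The window left out was deeper than the kept one in the other 3 libraries.

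Rises at 20 points or more were present in 11911 and 9789 windows in WT and in 16036 and 11290 windows in KO. The ratio of falling to rising windows was 0.711 and 0.637 in the WT libraries and 0.858 and 0.773 in the KO libraries, with no overlap (exact two-sided permutation p = 0.333). With scaled libraries the ratios were 0.745 and 0.760 in WT and 0.702 and 0.805 in KO, which overlap. Of 8491 windows rising in both WT libraries, 76.4% rose in both KO libraries.

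The deepest zone lay in the apolipoprotein L gene cluster on chromosome 15 from 77400001 to 77750000, with Apol7b, Apol7e, Apol10b, Apol10a, Apol11a and Apol11b. Its fall was -60.1 and -49.7 points in WT replicates 1 and 2 and -81.2 and -45.1 points in KO replicates 1 and 2. The KO libraries lay on either side of the WT libraries. The second deepest, on chromosome 2 from 152400001 to 152700000, held the signal peptide peptidase gene H13 and genes of β-defensins, which are antimicrobial peptides (Defb36, Defb23 and Defb22), with 6820408C15Rik and Rem1. Its falls were -50.5 and -39.2 points in the WT libraries, against -71.5 and -54.1 points in the KO libraries. Both KO values were deeper than both WT values.

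On chromosome 11 from 96400001 to 96725000 the fall lay over Skap1, an adaptor of T cell receptor signalling and the only protein-coding gene there. It was -49.7 and -44.4 points in the WT libraries, against -70.2 and -50.7 points in the KO libraries. On chromosome 8 from 85075001 to 85425000, with the cardiac myosin light chain kinase gene Mylk3, the retromer gene Vps35, the lysosomal mannosidase gene Man2b1, Cks1brt, 4921524J17Rik and Zfp791, it was -53.3 and -50.8 points in the WT libraries, against -65.8 and -43.8 points in the KO libraries. Here KO replicate 2 was the shallowest library. On chromosome 15 from 98150001 to 98500000 it was -51.6 and -46.7 points in the WT libraries, against -59.0 and -49.8 points in the KO libraries. That zone held the olfactory receptor genes Olfr287, Olfr288 and Olfr286, Asb8, Zfp641 and the milk protein gene Lalba.

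The widest zones that were named reached 400 kb. On chromosome 17 from 36325001 to 36725000, among genes of MHC class Ib molecules (H2-M10.3, H2-M10.4, H2-M9, H2-M11, H2-M1 and H2-M10.1), the fall was -40.8 and -38.0 points in the WT libraries, against -59.8 and -53.0 points in the KO libraries. Both KO values were deeper. On chromosome 8 from 87050001 to 87450000 no protein-coding gene overlapped the core, and the fall was -28.9 and -30.4 points in the WT libraries, against -41.5 and -40.2 points in the KO libraries. The replicates lay close together, and the groups did not overlap. On chromosome 9 from 31550001 to 31925000, with the homeobox gene Barx2 in its downstream part, it was -48.0 and -36.5 points in the WT libraries, against -72.1 and -42.0 points in the KO libraries. KO replicate 2 lay between the WT libraries.

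The zones with the largest differences towards deeper falls in KO lay on chromosomes 15, 7 and 11. At 96750001 to 97025000 on chromosome 15, the amino acid transporter gene Slc38a4 overlapped the downstream end of the zone by 30185 bases. The fall was -26.7 and -26.8 points in the WT libraries, against -56.2 and -46.9 points in the KO libraries. The means were -26.8 ± 0.0694 and -51.6 ± 6.54 points (SD, n = 2 each), a difference of -24.8 points. The change was on the downstream side as well as upstream: upstream polarity was 24.4 and 23.1 points in the WT libraries, against 36.1 and 32.0 points in the KO libraries. Downstream it was -2.35 and -3.76 points in the WT libraries, against -20.1 and -14.9 points in the KO libraries. The other zones of this kind were on chromosome 7 from 43850001 to 44200000 and on chromosome 11 from 3675001 to 3875000. The former holds genes of kallikreins, which are secreted serine proteases (Klk1b21, Klk1b16, Klk15, Klk4, Klk1b1 and Klk1b27). Its falls were -29.0 and -24.8 points in the WT libraries, against -52.1 and -46.7 points in the KO libraries, and the difference was -22.4 points. The latter holds the oxysterol-binding protein gene Osbp2 and the chromatin ATPase gene Morc2a, with -32.3 and -21.7 points in the WT libraries, against -54.4 and -43.9 points in the KO libraries. After scaling the 3 differences were -17.4, -15.6 and -15.3 points. The zones were named for the size of these differences, so nothing is read from the sign after scaling.

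The largest differences towards shallower falls in KO were about 10 to 12 points. On chromosome 6 from 128525001 to 128775000 the fall was -36.9 and -36.3 points in the WT libraries, against -23.2 and -25.7 points in the KO libraries. This zone holds A2ml1 and Pzp, of the α2-macroglobulin family of protease inhibitors, and Klrb1, Klrb1a and Clec2h of the natural killer receptor region. Downstream polarity there was -6.52 and -11.1 points in the WT libraries, against 13.9 and 2.63 points in the KO libraries, so the sign switch was present in WT and absent in KO. On chromosome 13 from 50675001 to 50900000, with Gm8765 near the upstream end, the fall was -41.0 and -35.7 points in the WT libraries, against -21.3 and -31.4 points in the KO libraries. On chromosome 3 from 55875001 to 56075000, within the neurobeachin gene Nbea, it was -37.2 and -30.8 points in the WT libraries, against -24.1 and -23.8 points in the KO libraries. After scaling, the differences of these 3 zones were 17.9, 17.5 and 15.4 points, as large as those of the zones deeper in KO. Their mid-levels, which the rule did not use, had limma adjusted p-values of 0.299, 0.602 and 0.347.

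**Figure D3:**
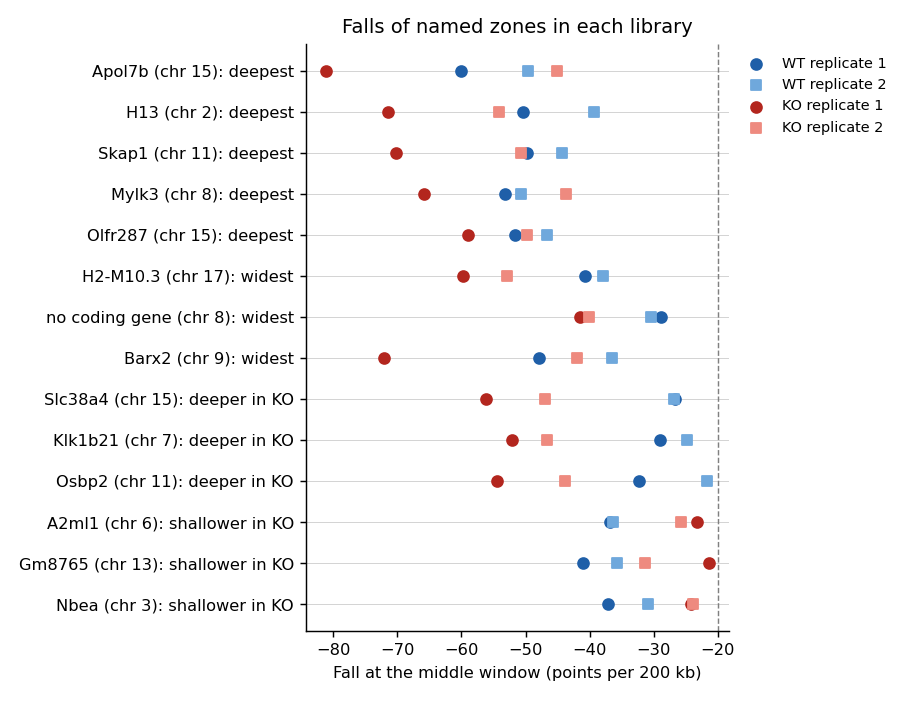
Falls at the middle window in points per 200 kb (horizontal axis) for the 14 named zones (rows, labelled with the gene of longest overlap, the chromosome and why the zone was named), with a point per library and a dashed line at the threshold of -20 points. WT and KO points do not overlap in the 3 zones named as deeper and the 3 named as shallower in KO, by the rule that named them, whereas in the Apol7b, Mylk3 and Barx2 zones the KO replicates are far apart.

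Genes were not used by the rule. Midpoints of protein-coding genes lay at 9.45 per Mb in the cores of falls, at 13.4 per Mb in the cores of rises and at 8.50 per Mb in all measured autosomal sequence. Falls were thus poorer in genes than rises. Around them, density was 9.07 and 9.24 per Mb within 100 kb on either side of the centre, and 14.4 and 13.8 per Mb at 200 to 300 kb on either side. It was still 11.6 and 12.6 per Mb at 900 to 1000 kb. Around rises the pattern was inverse, with 14.9 and 14.7 per Mb within 100 kb of the centre and 9.04 and 9.81 per Mb at 200 to 300 kb. Falls were therefore local dips in gene density within gene-rich regions.

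**Figure D4:**
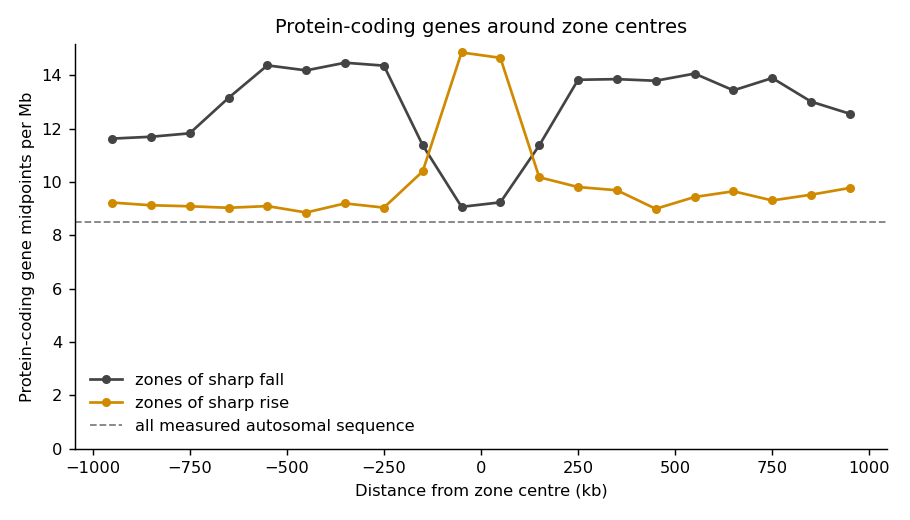
Protein-coding gene midpoints per Mb (vertical axis) in bins of 100 kb against the distance from the zone centre in kb (horizontal axis), for falls and rises, with the level of all measured autosomal sequence as a dashed line at 8.50 per Mb. Falls have a minimum of 9.07 per Mb at the centre between shoulders near 14 per Mb, and rises a maximum of 14.9 per Mb at the centre.

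Centres of falls often lay inside long genes. A protein-coding gene of 100 kb or more held the centre in 419 of 1009 falls (41.5%), against 8.98% of rises and 24.7% of all window positions. For genes of 300 kb or more the shares were 16.9%, 3.54% and 12.8%, and for any protein-coding gene 51.2%, 43.4% and 41.3%. These shares were not tested, because zones are not replicates. Within genes of 100 kb or more, 244 of 439 pairs of a fall centre and a gene (55.6%) had the centre in the central part of the gene, between 33.3% and 66.7% of its length, against 30.8% for rises and 33.4% for all positions. Fall centres were thus located near the middle of long genes more often than positions in general. The depth of the fall was alike inside and outside such genes. It was -28.9 points in the WT libraries, against -33.7 points in the KO libraries inside, and -29.0 and -34.1 points outside.

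**Figure D5:**
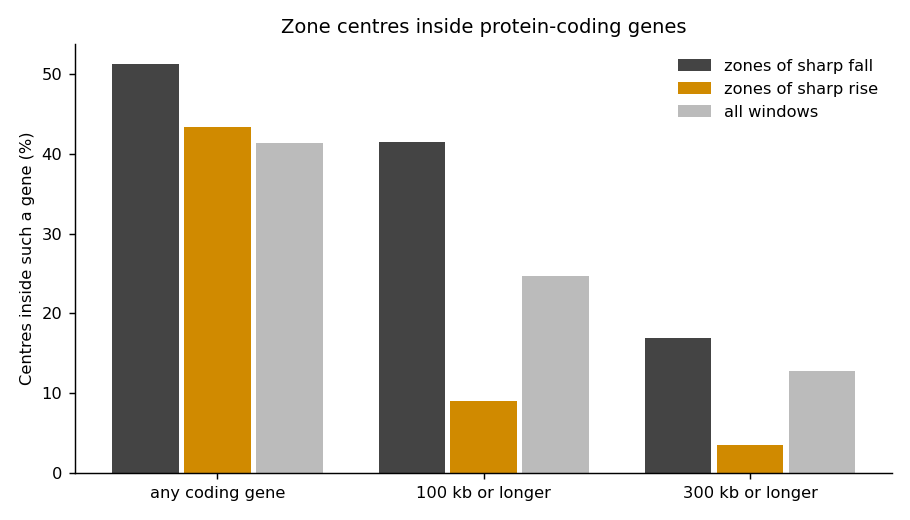
Share of centres in percent (vertical axis, from 0) that lie inside any protein-coding gene, a gene of 100 kb or longer and a gene of 300 kb or longer, for the 1009 falls, the 1582 rises and the 94040 window positions. For genes of 100 kb or longer the bars stand at 41.5%, 8.98% and 24.7%.

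Among 410 genes of 100 kb or more that held a fall centre, 28 held more than 1. Overlapping entries of a locus, such as Ugt1a10 and Ugt1a9 on chromosome 1, count as separate genes here and in the pairs of centres and genes above. The RhoGAP gene Stard13 held 3, whose cores overlap, with falls of -22.3 to -25.6 points in WT and -22.6 to -24.6 points in KO (genotype means). Others with 2 centres, chosen after their values were seen, were the cAMP phosphodiesterase gene Pde4d on chromosome 13, 1302 kb long, the reelin gene Reln on chromosome 5, 460.3 kb long, and the VEGF receptor gene Flt1 on chromosome 5, 164.8 kb long. No protein-coding gene overlapped the core in 157 falls (15.6%), against 69 rises (4.36%), whose cores are slightly wider. Zones over many genes had deeper falls. The mean was -27.0 points in the WT libraries, against -31.4 points in the KO libraries with no gene, and -32.3 and -38.7 points in the 68 zones with 9 or more. The order was the same in all 4 libraries, from -28.0 to -33.8, -26.0 to -30.8, -34.1 to -43.6 and -28.6 to -33.8 points in WT replicates 1 and 2 and KO replicates 1 and 2. Mean width moved with it, from 242 to 281 kb, and its part was not tested. The KO to WT ratio of the mean fall was 1.16 with no gene and 1.20 with 9 or more.

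Gene families differed in how often they lay in falls. Of all 20665 autosomal protein-coding genes, 11.2% had their midpoint in a fall core and 27.9% in a rise core. Of 1104 olfactory receptor (Olfr) genes, 19.5% lay in falls and 11.2% in rises, and of 354 vomeronasal receptor (Vmn) genes 11.6% and 4.52%. Both families encode chemosensory receptors of sensory neurons. The share of Olfr genes in falls was above that of all genes and the share of Vmn genes close to it, and both shares in rises were below that of all genes. Olfr genes lay in 33 zones of fall. The largest group was 13 Olfr genes, Olfr62 and Olfr1328 among them, in the zone on chromosome 4 from 118625001 to 118975000, with a fall of -33.6 points in the WT libraries, against -37.6 points in the KO libraries. Of 388 Zfp zinc finger genes, 6.44% lay in falls, below the share of all genes, and 29.1% in rises, close to it.

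Of 19 autosomal pluripotency genes, which sustain the embryonic stem cell state (Pou5f1, Sox2 and Nanog among them), none lay in a fall core (count 0) and 15 lay in a rise core. Of 39 Hox genes, 1 lay in a fall, Hoxc13 at the edge of a zone with mean falls of -30.4 points in the WT libraries, against -41.6 points in the KO libraries, and 38 lay in rises. Of 11 autosomal genes of ISWI subunits none lay in a fall and 3 in a rise. Of 21 long genes of common fragile sites, Nbea and the exocyst gene Exoc4 had their midpoint in a fall and none in a rise. The Exoc4 zone, on chromosome 6 from 33325001 to 33675000, had falls of -37.2 and -25.5 points in the WT libraries, against -41.6 and -30.2 points in the KO libraries, with replicates farther apart than genotypes.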

How the data were processed

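TrAEL-seq was measured in 4 libraries, with groups and replicate numbers from the labels. WT replicate 2 carries one index in its label and another in its column name. The submitters' processing notes name Trim Galore 0.6.5, Bowtie2 2.4.1 and GRCm38. Per the file headers, the authors aligned each library with Bowtie2 to GRCm38 and rRNA and deduplicated the alignments. The deposited values are a score per window, a signed strand imbalance between -50 and 50 points. Its formula, its positive strand and any read minimum are not given in the sources used here. The table gives no read counts, so depth is unknown and no interval or detection limit was computed.

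Full-length autosomal windows with a value and a partner 200 kb downstream in all 4 libraries were used. Genotypes were compared over all 94040 windows with limma 3.58.1 in R 4.3.3 (lmFit, eBayes, Benjamini-Hochberg, adjusted p under 0.05), checked on simulated data, and per library with exact two-sided permutation tests over 6 label orders. Scaled libraries are values divided by the library SD and multiplied by the mean SD. Windows overlap, so their calls are not independent.

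Named zones were the 5 deepest by mean fall, the 3 widest (ties by the deeper mean fall), the 3 with the largest difference each way among zones whose genotypes do not overlap, and up to 5 whose mid-level passed. Zones on chromosome 18, the widest of all among them, were counted and not named. Up to 6 protein-coding genes per zone were named by overlap. Gene intervals and promoters came from RefSeq (GRCm38.p6). Gene positions are interval midpoints, because strand was known for 79.6% of protein-coding genes, under the 80% set for such a check; orientation was not analysed here. The result of 1 gene list is not reported here. Zones, lists and tests were chosen with earlier results of these data known. Counts and ratios were computed in Python 3.11.15 (numpy 2.4.6, pandas 2.3.3; permutation tests in scipy 1.17.1), with plots from matplotlib 3.10.9.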

Additional observations from a re-analysis of the deposited data

How the results depend on the processing

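Over the alternatives, 37 values of the comparisons kept their direction or stayed within the set tolerance, some at a far smaller size as given here, 24 moved beyond it and 4 reversed. The number of zones was 1736 at 15 points, 537 at 25 points and 267 with the partner at 100 kb, and 1049 to 1293 without 1 library. Division by the library SD reversed the KO minus WT fall to 1.20 points, the difference in falling windows to -220 and that in rising windows to -297.5. These are measures of amplitude, which that scaling divides out. The replicate block, whose same-numbered libraries had deviations correlated at 0.161 for the fall (0.0158 scaled), gave 1424 windows called for the fall and 4215 for the mid-level. Scaled libraries gave 459 and 1581, limma's trend and robust options 221 and 1983, and windows spaced 100 kb 2 and 8. An adjusted p under 0.1 gave 62 for the mid-level. Without 1 library the calls ranged from 25 to 10565 for the fall and from 17 to 25499 for the mid-level. Each such fit has a lone library in 1 genotype that is assumed to vary like the other, and the highest counts came without KO replicate 2. The KO minus WT fall without 1 library ranged from -9.10 to -0.790 points, the crossing from -1.18 to 0.00824 kb, falling windows from 1378.5 to 6412.5 and rising windows from 440 to 5186. Kept shares of WT windows were 64.1% at 25 points and 57.6% scaled. Those of KO windows were 56.0% at 15 points, 41.05% at 25 points and 66.3% scaled. The cause was not tested. The density of genes in falls over that in rises was 0.704 and stayed between 0.630 and 0.815 with all genes, 25 points, footprints and gene starts, the last chosen after seeing the data. No permutation test of 2 against 2 libraries can reach the threshold, and depth is unknown.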

Other observations

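The X chromosome was outside the rule. The same thresholds found 36 zones of fall and 90 of rise over its 5761 windows, which is 2.50 falls per 10 Mb against 4.29 on the autosomes. Their median width was 225 kb. The mean fall at these zones was -31.8 and -28.6 points in WT replicates 1 and 2 and -36.5 and -32.5 points in KO replicates 1 and 2. Both KO libraries were deeper than both WT libraries on X, with a KO to WT ratio of 1.14, and no test was made because the same values chose the zones. Amplitude was not divided out on X. The KO to WT ratio of the SD of the fall over autosomal windows was 1.22.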
